A study of Mus musculus with 50 samples.

Results

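Stra6, the membrane receptor that takes up retinol from its carrier in blood, and 8 further genes that bind, make, break down or sense retinoids were followed through RNA sequencing of 48 mouse sarcomas. The 9 genes were picked by symbol, as 9 of the 37469 gene rows of the count table, and all 9 were among the 19327 genes with enough reads to be tested. The choice was not independent of the values: Stra6 was taken up because it stood among the genes most raised in transplant tumors over primary tumors in the same libraries. The difference between transplant and primary tumors is therefore given for the 9 genes as a description, with no test.

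All tumors were p53/MCA sarcomas of 129/SvJae mice. For primary tumors, Trp53 fl/fl mice 6 to 10 weeks of age received Adeno-Cre, an adenovirus that deletes Trp53 where it is injected, and 300 µg of the carcinogen 3-methylcholanthrene (MCA) in the gastrocnemius muscle. For transplant tumors (Allograft in the labels), 50000 cells of line 402230, made from 1 primary p53/MCA sarcoma, were injected into the same muscle of syngeneic mice. At about 150 mm3, tumors received 0 or 20 Gy and either an isotype control antibody or an antibody against the checkpoint receptor PD-1 (200 µg), and they were harvested 3 days later. Per treatment there were 8 libraries of primary tumors and 4 of transplants, each library being a separate sample. Because all 16 transplants descend from 1 line while each of the 32 primary tumors arose on its own, the transplant model and this 1 line cannot be told apart.

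Retinol circulates bound to a carrier protein, enters cells through STRA6 and is oxidized first to retinal and then, by the ALDH1A enzymes, to retinoic acid. Inside the cell retinoic acid is held by the CRABP proteins, broken down by CYP26 enzymes, or carried to the nucleus, where the receptors RARα, RARβ and RARγ, paired with RXR proteins, switch genes on or off. Stra6 was first isolated as a gene stimulated by retinoic acid, and Rarb and the CYP26 genes are well-known targets of the receptors, so the pathway feeds back on itself. In the embryo these genes pattern the limb and the body axis, and in adult muscle and connective tissue they are expressed by several cell types.

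The start of Rarb shows the kind of sequence that retinoic acid receptors bind. Receptors paired with RXR bind direct repeats of a 6-base half-site, of which the form spaced by 5 bases is the classical one. Below are the 150 bases before a RefSeq start of 3 genes (assembly GRCm38.p6), shown because Rarb and the breakdown gene Cyp26a1 hold such a repeat and Stra6, the gene on which the results turn, does not in this window. Each runs 5′ to 3′ on the strand of its gene, and capitals mark the half-sites of a repeat. The Stra6 window (chr9:58128938-58129087, + strand) lies before the first of its annotated RefSeq starts, the Rarb window is at chr14:16575477-16575626 (- strand) and the Cyp26a1 window at chr19:37697658-37697807 (+ strand).
Stra6: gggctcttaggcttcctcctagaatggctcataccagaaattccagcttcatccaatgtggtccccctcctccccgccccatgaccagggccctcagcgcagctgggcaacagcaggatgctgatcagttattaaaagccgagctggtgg
Rarb: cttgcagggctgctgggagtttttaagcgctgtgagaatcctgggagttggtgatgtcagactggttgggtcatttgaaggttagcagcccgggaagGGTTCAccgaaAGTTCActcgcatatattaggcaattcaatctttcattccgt
Cyp26a1: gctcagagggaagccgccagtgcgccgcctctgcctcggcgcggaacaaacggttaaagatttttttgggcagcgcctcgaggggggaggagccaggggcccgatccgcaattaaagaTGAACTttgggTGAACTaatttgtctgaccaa

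The search took the half-site AGGTCA together with its close forms AGTTCA or, with another first base, GGGTCA along with the form GGTTCA. Both strands were searched for direct repeats of these 4, spaced by 1, 2 or 5 bases, in windows from 250 bases before to 50 after each start. The repeat spaced by 5 bases was present in 32 of 32851 such windows of the mouse genome (0.0974%), that spaced by 1 base in 73 (0.222%) and that spaced by 2 bases in 88 (0.268%). A single half-site was common, at 14358 windows (43.7%), and every repeat holds 2 of them. Of the 9 genes, 8 had at least 1 window (16 windows in all), and Rarb alone held a repeat, 53 to 37 bases before its start. Of the 47 other retinoid pathway genes, 31 had a window, and a repeat was found before Cyp26a1 (spaced by 5 bases, 32 to 16 bases before the start, on the opposite strand) and Bco1 (spaced by 1 base). These are matches of letters and no evidence of binding.

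Total counts ran from 31810461 to 54008259 per tumor library, and no library repeated another of its own treatment group. Levels are given as CPM, the count of a gene per 1000000 counts of its library, after scaling by the TMM factors of edgeR. Skeletal muscle RNA varied widely among tumors: the summed level of 9 muscle fiber genes ran from 12.6 to 84920 CPM and exceeded 10000 CPM in 10 libraries, of which 5 were irradiated primary tumors and 5 were transplants. The 2 single libraries of line 402230 went against their labels. The library labelled parental tumor held 3.69 CPM of 8 macrophage genes, 0.782 CPM of 7 endothelial genes and no read of Adgre1, Cd3e or Cd8a, whereas in the 48 tumors the macrophage sum was never below 794 CPM and the endothelial sum never below 148 CPM. The library labelled cell line held 1173 CPM of macrophage genes, 391 CPM of endothelial genes and 11.6 CPM of T cell genes. Neither library entered the main tests, and both are described last.

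The 9 genes differed widely in level. Per kilobase of exon, Crabp1 was the most abundant, with medians of 549 CPM per kb in the 32 primary tumors and 614 in the 16 transplants. Rarb was the least abundant, at 0.379 and 0.577 CPM per kb. Stra6 changed its place most: at a median of 1.95 CPM per kb it ranked below Crabp1, Crabp2 (25.8), Rarg (24.4) and Rara (11.5) in primary tumors, and at 64.1 CPM per kb it ranked next after Crabp1 in transplants, while Aldh1a2 (1.001 and 7.61) and Cyp26b1 (1.65 and 4.97) exchanged places.

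Stra6 (ENSMUSG00000032327.14; chromosome 9, 58063788 to 58153996, + strand, mm10) was high in nearly every transplant and low and uneven in primary tumors. In untreated transplants, that is 0 Gy with isotype antibody, it stood at 471, 375, 426 and 297 CPM. In untreated primary tumors it ran from 0.147 CPM through a median of 12.5 to 78.2 CPM. The 2 untreated groups did not overlap. A complete separation with transplants above was seen for 554 of the 19327 genes (2.87%), and as this contrast led to the choice of Stra6, nothing is read from it.

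The other transplants were alike except for 2 of those given the combination. Stra6 measured 283, 552, 289 and 512 CPM with anti-PD-1 alone, and 373, 400, 344 and 508 CPM with 20 Gy alone. With 20 Gy and anti-PD-1 it measured 365, 46.7, 161 and 415 CPM. The transplants at 46.7 and 161 CPM, replicates 2 and 3 of that group, lay below the range of the other 14. Replicate 2 also had 12690 CPM of muscle genes and 5696 CPM of macrophage genes, the highest macrophage sum among transplants, and replicate 3 had 9007 CPM of muscle genes; the part of these in its Stra6 level was not tested.

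**Figure D1:**
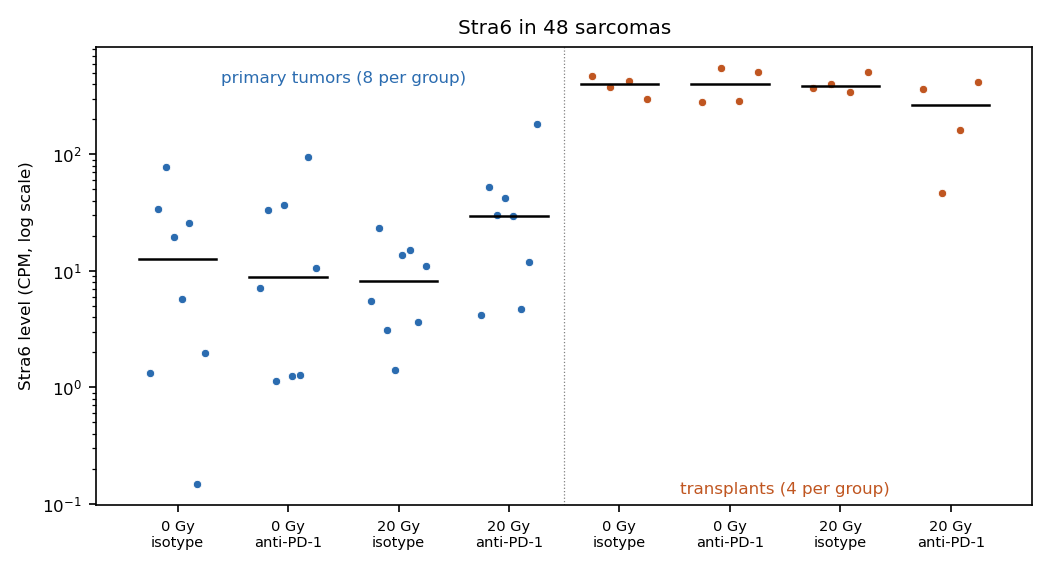
Stra6 level (CPM, log scale) in each of the 48 tumors, by model and treatment; points are single libraries and bars are group medians. Of the 16 transplants, 14 lie above the highest primary tumor (181 CPM), and the 32 primary tumors spread from 0.147 to 181 CPM.

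Primary tumors of every treatment spread over a wide range. Stra6 ran from 1.14 through a median of 8.81 to 95.5 CPM with anti-PD-1 alone, and from 1.41 through 8.21 to 23.3 CPM with 20 Gy alone. With the combination it ran from 4.16 through 29.6 to 181 CPM. On the log2 scale its SD within a treatment was 1.36 to 2.89 in primary tumors, against 0.24 to 0.52 in 3 of the 4 transplant groups and 1.45 in the transplants given the combination.

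Across all treatments, 28 of 32 primary tumors lay below the lowest transplant and the median of transplants was 32.9 times that of primary tumors. The fitted difference was 4.24 on the log2 scale in untreated tumors, 2.48 under the combination and 4.06 over the 4 treatments. The untreated value was 4.96 without primary replicate 3, the untreated primary tumor at 78.2 CPM, and 5.83 with limma voom. That under the combination was 3.31 without the primary tumor at 181 CPM and 3.91 without the muscle-rich libraries described below, and over the 4 treatments limma voom gave 5.04. Only 6 genes of 19327 (0.0310%) had all 16 transplants above all 32 primary tumors, and Stra6 was not among them. Ordered by mean log2 CPM, the groups ran from transplants with 20 Gy alone down to untreated primary tumors, with the 4 transplant groups above the 4 primary groups. Between neighbors in this order the ranges overlapped at every step, also between transplants given the combination and primary tumors given the combination.

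Stra6 passed the test for no treatment. The test was edgeR's quasi-likelihood test with Benjamini-Hochberg adjustment over all genes (adjusted p below 0.05). After 20 Gy, with the antibodies averaged, its log2 fold change in primary tumors, 16 against 16, was -0.10 (SE 0.57, edgeR adjusted p = 0.917). The mean of its log2 CPM was 3.66 with 20 Gy and 2.88 without, a difference of the other sign. In transplants, 8 against 8, the fold change was -0.34 (SE 0.80, edgeR adjusted p = 0.886). With anti-PD-1 in primary tumors it was 1.19 (SE 0.58), with an unadjusted p of 0.0446 and an edgeR adjusted p of 0.717. By antibody, the radiation change in primary tumors was -1.12 with isotype (edgeR adjusted p = 0.349) and 0.92 with anti-PD-1 (edgeR adjusted p = 0.503). Whether these 2 differ was not tested.

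Crabp1 (chromosome 9, 54764748 to 54773110, + strand) encodes a cytosolic protein that binds retinoic acid and limits its supply to the receptors. It was lower in irradiated than in unirradiated primary tumors. Without radiation the 16 primary tumors ran from 327 through a median of 814 to 2601 CPM, and with 20 Gy from 23.8 through 299 to 874 CPM. The ranges overlapped, but the lowest 3 primary tumors, at 23.8, 31.0 and 78.5 CPM, had all been irradiated. It fell by 1.43 on the log2 scale (SE 0.34, edgeR adjusted p = 0.00140). It was -1.31 with isotype antibody (edgeR adjusted p = 0.0516, DESeq2 and limma voom below the threshold) and -1.55 with anti-PD-1 (edgeR adjusted p = 0.0316), 2 comparisons that share no library. The call under anti-PD-1 was lost with no count filter (adjusted p = 0.0592), with only the groups compared (0.0901) and without the muscle-rich libraries described below (0.195).

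In transplants Crabp1 stood at 684, 634, 373 and 514 CPM untreated and at 540, 408, 417 and 512 CPM after 20 Gy alone. With anti-PD-1 it stood at 473, 535, 384 and 623 CPM without radiation and at 553, 87.5, 300 and 405 CPM with it. The 87.5 CPM library was again replicate 2 of the combination, and without it and replicate 3 the transplant groups lay within the same range. After radiation its log2 fold change was -0.41 (SE 0.48, edgeR adjusted p = 0.719). Radiation by model, the test of whether the effect differed between transplants and primary tumors, gave 1.02 (SE 0.58, edgeR adjusted p = 0.649).

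Crabp2 (chromosome 3, 87948666 to 87953376, + strand), which encodes the protein that delivers retinoic acid to the receptors, was not called after radiation in either model. In primary tumors it ran from 2.47 through 25.9 to 95.3 CPM without radiation and from 10.8 through 35.04 to 73.3 CPM with it (log2 fold change 0.29, SE 0.28, edgeR adjusted p = 0.463). In transplants it measured 47.0, 63.7, 38.1 and 44.1 CPM untreated and 27.0, 24.4, 36.2 and 27.1 CPM after 20 Gy alone. These 2 groups of 4 did not overlap, but the change was not called (log2 fold change -0.75, SE 0.56, edgeR adjusted p = 0.683). How many of all genes separate in this way was not counted, and nothing is read from it. With anti-PD-1 it measured 53.4, 34.6, 52.3 and 50.005 CPM without radiation and 38.2, 21.0, 28.1 and 41.2 CPM with it, and here the groups overlapped. Over both antibodies the log2 fold change was -0.66 (SE 0.40, edgeR adjusted p = 0.384). In a fit of the 4 transplant groups alone, which estimates the spread from transplants only, it was -0.63 (edgeR adjusted p = 0.0159), while the other alternatives gave adjusted p from 0.344 to 0.653.

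**Figure D2:**
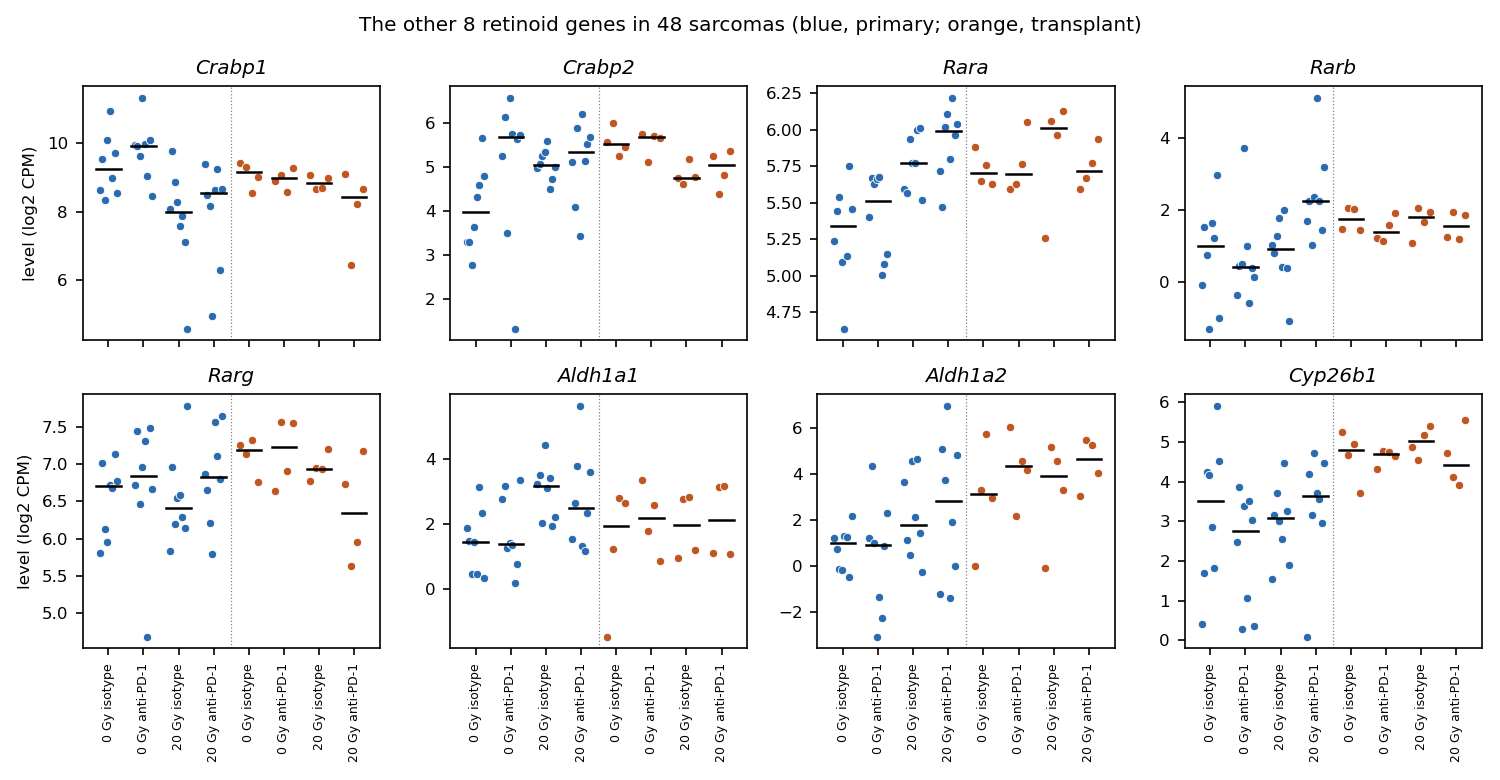
Levels of the other 8 genes (log2 CPM) in each of the 48 tumors by treatment group, primary tumors in blue and transplants in orange; bars are group medians. Crabp1 lies lower and Rara higher in irradiated primary tumors.

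Aldh1a1 and Aldh1a2, which encode enzymes that make retinoic acid from retinal, were called higher in irradiated primary tumors. Aldh1a1 (chromosome 19, 20492715 to 20643465, + strand) ran from 1.09 through 2.62 to 10.1 CPM without radiation and from 2.22 through 7.42 to 49.7 CPM with it. The groups overlapped over most of their range. edgeR gave a log2 fold change of 1.42 (SE 0.43, adjusted p = 0.00981), and one of 0.997 (adjusted p = 0.0531) without the tumor at 49.7 CPM, replicate 4 of the primary tumors given the combination.

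Aldh1a2 (chromosome 9, 71215789 to 71296243, + strand), the main source of retinoic acid in the embryo, varied most of the 9 genes within irradiated primary tumors. It ran from 0.0694 through 1.85 to 19.9 CPM without radiation and from 0.332 through 4.01 to 123.6 CPM with it. The 123.6 CPM tumor was the same replicate 4, and the lowest irradiated tumors lay below most unirradiated ones. The fitted log2 fold change was 2.46 (SE 0.70, edgeR adjusted p = 0.00665), while limma voom gave 1.77 with an adjusted p of 0.135.

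Skeletal muscle RNA moved with both enzymes. After radiation of primary tumors, 8 of the 9 muscle genes rose (median log2 fold change 2.53), in a comparison that called 31.0% of all genes. Their sums ran from 55.4 to 7933 CPM without radiation and from 12.6 to 84920 CPM with it. The medians of these sums were alike, at 1694 and 1752 CPM, and the 5 primary tumors above 10000 CPM had all been irradiated. The tumor with 123.6 CPM of Aldh1a2 was the one with 84920 CPM of muscle genes. Taken as deviations from the group means on the log2 scale, Aldh1a1 and the muscle sum had r = 0.74 (rho 0.72) over the 32 primary tumors and r = 0.83 (rho 0.81) over the 16 transplants. For Aldh1a2 the values were r = 0.71 (rho 0.66) and r = 0.89 (rho 0.82). The summed level of 7 genes of pericytes and smooth muscle moved with Aldh1a2 as well, with r = 0.71 in primary tumors and 0.96 in transplants, and with Aldh1a1 it had r = 0.63 and 0.86. Adipocyte genes had r = 0.72 and 0.77 with Aldh1a1 and 0.59 and 0.62 with Aldh1a2, and dendritic cell genes had r = 0.59 and 0.69 with Aldh1a1 and 0.67 and 0.65 with Aldh1a2. For Schwann cell genes r was 0.57 and 0.72 with Aldh1a1 and 0.54 and 0.71 with Aldh1a2. For T cell genes it was 0.55 and 0.50, and 0.49 and 0.66. Macrophage genes had 0.56 and 0.44, and 0.46 and 0.11, and fibroblast genes 0.29 and -0.06, and 0.27 and 0.21. These points share their libraries and the scaling of each, and the values are descriptions. For Stra6, r with the muscle sum was 0.03 in primary tumors and -0.30 in transplants.

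With the antibodies averaged, the radiation calls of Aldh1a1 and Aldh1a2 were lost without the muscle-rich tumors, and those of Crabp1 and Rara were not. Without the 10 libraries above 10000 CPM of muscle genes, a limit set after seeing the data, Aldh1a1 was at 0.43 on the log2 scale (edgeR adjusted p = 0.488) and Aldh1a2 at 1.36 (edgeR adjusted p = 0.189). In the same fit Crabp1 was at -1.27 (edgeR adjusted p = 0.0169) and Rara at 0.47 (edgeR adjusted p = 0.00365). Over all genes, the number called in this comparison went from 5996 to 3877 in that fit. With the muscle sum as a covariate, Aldh1a1 was at 0.97 (edgeR adjusted p = 0.00716) and Aldh1a2 at 0.64 (edgeR adjusted p = 0.388). Macrophage genes moved as well: 6 of 8 rose after radiation in primary tumors (median 0.65) and 5 of 8 in transplants (median 0.88). With the antibodies averaged, 31.0% and 7.23% of all genes were called in these models. The part of macrophages in the changes of the 9 genes was not tested. In bulk tissue, fewer cells of a type and less RNA per cell cannot be told apart.

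**Figure D3:**
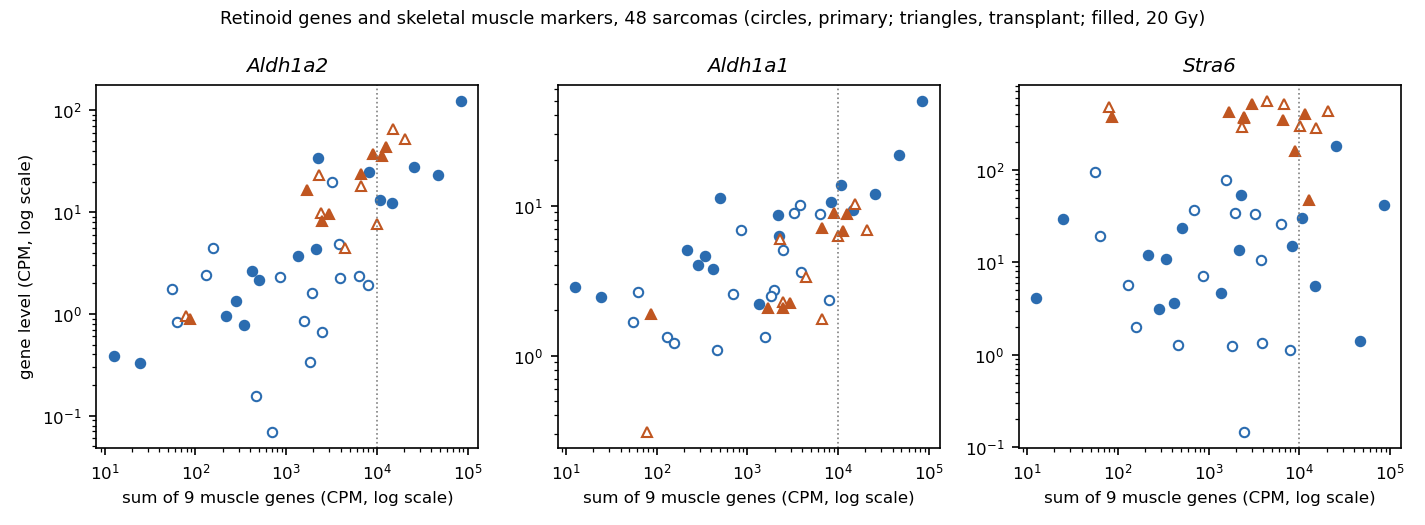
Levels of Aldh1a2, Aldh1a1 and Stra6 (CPM) against the summed level of 9 skeletal muscle genes (CPM), all axes logarithmic, in 48 tumors; circles are primary tumors, triangles transplants, filled symbols 20 Gy, and the dotted line is 10000 CPM. Aldh1a2 and Aldh1a1 climb with the muscle sum in both models, and Stra6 does not.

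In transplants neither enzyme passed the test after radiation. Aldh1a1 measured 0.310, 2.27, 6.87 and 6.26 CPM untreated and 1.89, 6.79, 7.10 and 2.23 CPM after 20 Gy alone. Aldh1a2 measured 0.954, 9.74, 52.2 and 7.71 CPM untreated and 0.896, 35.8, 23.6 and 9.62 CPM after 20 Gy alone. For both genes the lowest value of each group was the library with under 100 CPM of muscle genes (79.1 and 86.9 CPM). The radiation fold changes were 0.11 (SE 0.59, edgeR adjusted p = 0.958) for Aldh1a1 and -0.05 (SE 0.93, edgeR adjusted p = 0.991) for Aldh1a2. Over all treatments the median of Aldh1a2 in transplants was 7.60 times that in primary tumors, with 23 of 32 primary tumors above the lowest transplant, and that of Aldh1a1 was 1.08 times. Muscle sums were also higher in transplants, with medians of 5541 CPM against 1694 CPM in primary tumors, although none of the 9 muscle genes passed the test between the models.

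Cyp26b1 (chromosome 6, 84571414 to 84593908, - strand), which encodes an enzyme that breaks down retinoic acid, had, after Stra6 and Aldh1a2, the next highest ratio of transplant to primary medians. All 9 ratios were above 1, but the fitted difference over treatments was -0.26 for Crabp1, -0.06 for Rarb and -0.42 for Aldh1a1. As the difference between the models led to the choice of Stra6, nothing is read from this count. Cyp26b1 ran from 13.0 through 26.6 to 46.8 CPM in the 16 transplants and from 1.012 through 8.84 to 60.2 CPM in the 32 primary tumors, a ratio of medians of 3.01. Of the primary tumors, 22 lay below the lowest transplant, and no transplant exceeded the highest primary tumor. After radiation its log2 fold change in primary tumors was 0.07 (SE 0.39, edgeR adjusted p = 0.913), and in transplants 0.18 (SE 0.55, edgeR adjusted p = 0.915). By antibody it was -0.87 with isotype (edgeR adjusted p = 0.280) and 1.01 with anti-PD-1 (edgeR adjusted p = 0.243) in primary tumors, a difference that was not tested. Within primary tumors its SD was 0.95 to 1.82 on the log2 scale by treatment.

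Among the receptors, Rara (chromosome 11, 98927818 to 98974942, + strand) was the steadiest gene of the 9 and rose with radiation in primary tumors. It ran from 24.8 through 42.8 to 53.9 CPM without radiation and from 44.3 through 58.5 to 74.5 CPM with it. The groups overlapped only between 44.3 and 53.9 CPM. Its log2 fold change was 0.48 (SE 0.09, edgeR adjusted p = 1.1e-04), with 0.46 (edgeR adjusted p = 0.0110) under isotype antibody and 0.50 (edgeR adjusted p = 0.0101) under anti-PD-1. Without the muscle-rich libraries the value under anti-PD-1 was 0.42 (edgeR adjusted p = 0.161). In transplants it stood at 58.9, 50.1, 54.0 and 49.5 CPM untreated and at 38.1, 66.5, 62.3 and 70.0 CPM after 20 Gy alone. The transplant groups overlapped, with 1 irradiated transplant below and 3 above all untreated ones. Over both antibodies the change in transplants was 0.07 (SE 0.13, edgeR adjusted p = 0.857). The difference between the models was -0.42 (SE 0.16), with an unadjusted p of 0.0133 and an edgeR adjusted p of 0.406.

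Rarb (chromosome 14, 16430839 to 16819156, - strand), the receptor gene with the repeat printed above, was low throughout. In primary tumors with anti-PD-1 it ran from 0.624 through 1.30 to 13.2 CPM without radiation and from 2.00 through 4.72 to 34.5 CPM with it. With isotype antibody it ran from 0.365 through 1.97 to 7.77 CPM and from 0.431 through 1.85 to 3.98 CPM. The log2 fold change after radiation was 1.61 with anti-PD-1 (SE 0.58, edgeR adjusted p = 0.0640; DESeq2 0.0284, limma voom 0.0213, other alternatives 0.0648 to 0.210) and -0.24 with isotype (SE 0.57, edgeR adjusted p = 0.805). Whether these 2 differ was not tested. In the 16 transplants Rarb stayed between 2.08 and 4.12 CPM, inside the range of the primary tumors.

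Rarg (chromosome 15, 102234938 to 102257517, - strand), the receptor gene with the highest level per kilobase, ran from 25.6 through 104.1 to 219 CPM in primary tumors and from 49.7 through 122.4 to 190 CPM in transplants. Its log2 fold change after radiation in primary tumors was 0.05 (SE 0.20, edgeR adjusted p = 0.870), and in transplants -0.44 (SE 0.29, edgeR adjusted p = 0.431). The transplant at 49.7 CPM was replicate 2 of the combination, which was also lowest for Stra6 and Crabp1.

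Counted together, 3 of the 9 genes rose and 1 fell in irradiated primary tumors, against 31.0% of all genes tested in this comparison, and the median log2 fold change was 0.29 for the 9 genes and 0.00 for all genes. Under isotype antibody 1 of 9 passed (18.3% of all genes) and under anti-PD-1 2 of 9 (11.2%). In transplants none of the 9 passed over both antibodies (7.23% of all genes), under isotype (1.92%) or under anti-PD-1 (0.595%), and none had an unadjusted p under 0.05. Of all genes, 3768, 2335 and 2540 had one in these transplant comparisons, in the same order. DESeq2 and limma voom also called none there. Radiation by model called none of the 9 with edgeR, DESeq2 or limma voom (0.0259% of all genes, 5 genes, with edgeR). There 1652 of all genes had an unadjusted edgeR p under 0.05, and 2 of the 9 were among them, Rara and Aldh1a2. These shares are given beside those of all genes and are not read as a result about the 9 genes. The median of the 9 in transplants was -0.05, against -0.02 for all genes.

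**Figure D4:**
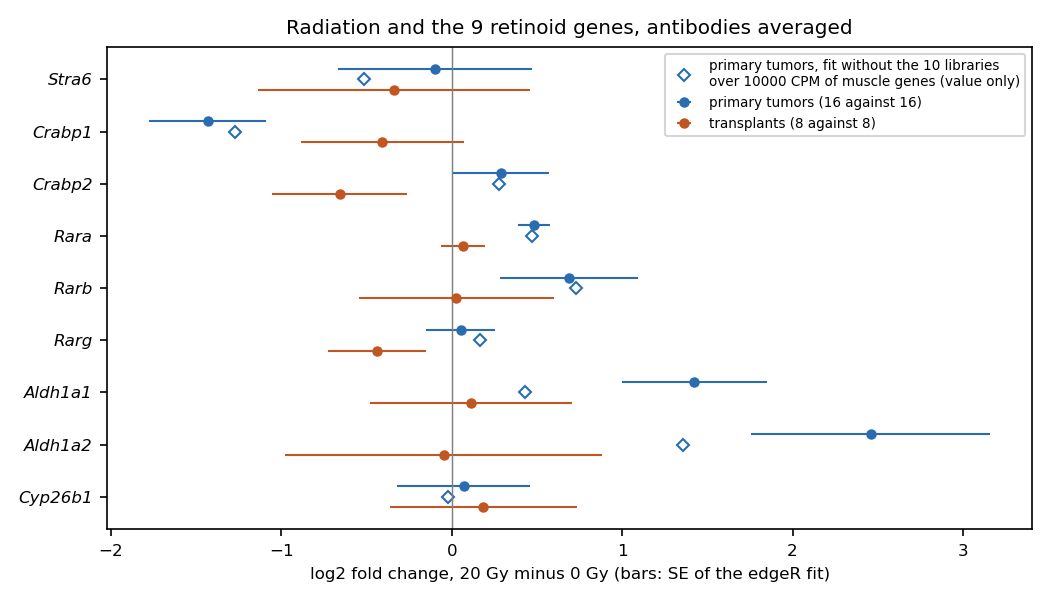
Log2 fold change after 20 Gy, antibodies averaged, for the 9 genes in primary tumors (blue, 16 against 16) and transplants (orange, 8 against 8); bars are the SE of the edgeR fit, and open diamonds are the primary tumor values from the fit without the 10 libraries above 10000 CPM of muscle genes, 5 of which are irradiated primary tumors. Without those libraries Crabp1 and Rara stand at -1.27 and 0.47, and Aldh1a1 and Aldh1a2 fall to 0.43 and 1.36.

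Anti-PD-1 called none of the 9 genes. In primary tumors edgeR called 3 genes of all tested (0.0155%), with 1331 genes at an unadjusted p under 0.05. Of the 9 genes, 3 were among these 1331: Stra6, Crabp2 (0.74 on the log2 scale, edgeR adjusted p = 0.599) and Rarb (1.08, edgeR adjusted p = 0.599). That count is not read as a result about the 9 genes. In transplants edgeR called no gene (0%), with 383 genes at an unadjusted p under 0.05 and none of the 9 among them, where DESeq2 called 1 gene and limma voom 0. Neither DESeq2 nor limma voom called any of the 9 for anti-PD-1 in either model.

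The wider retinoid pathway was followed in 47 further genes, of which 44 had enough reads to be tested and Aldh8a1, Cdx1 and Stra8 did not. In irradiated primary tumors 12 rose and 1 fell (31.0% of all genes were called), with a median log2 fold change of 0.10. Stra6l, which encodes a second membrane receptor for the retinol carrier, rose by 2.07 (SE 0.28, edgeR adjusted p = 3.1e-07), from 0.0713 to 1.38 CPM without radiation to 0.558 to 4.04 CPM with it. It also rose in transplants, by 2.96 (SE 0.41, edgeR adjusted p = 7.5e-06). There its level was 0.381 to 0.811 CPM without radiation and 2.54 to 6.89 CPM with it. The 8 and 8 libraries did not overlap, and how many of all genes separate in this way was not counted. Stra6l was called after radiation in both models, and Stra6 in neither. Whether the changes of the 2 genes differ was not tested.

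Of 11 transport and storage genes in primary tumors, 3 rose: Stra6l, Lipe (0.77), a lipase that frees stored lipid esters, and Dgat1 (0.36), which can esterify retinol. Of 13 genes that interconvert retinol and retinal or cleave carotene, Bco1 (1.06), Rdh12 (0.97) and Dhrs3 (0.56) rose and Rdh11 fell by 0.43. Of the 4 tested genes of retinoic acid synthesis and breakdown, Cyp1b1 (3.13) and Cyp26c1 (1.59) rose, and Cyp26a1, with the printed repeat, stood at 0.55 (edgeR adjusted p = 0.223) at a median of 0.233 CPM over the 32 tumors. Cyp1b1 is also a well-known target of the receptor for aromatic hydrocarbons such as MCA. Among 11 receptors and coregulators Rxrg (2.16) and Ncoa1 (0.54) rose, and among 5 tested retinoic acid responsive genes Rarres2 (1.97), which encodes the chemoattractant chemerin, and Tgm2 (0.82), a transglutaminase, rose. Without the 10 muscle-rich libraries Rxrg was at -0.31 (edgeR adjusted p = 0.739), and Bco1 (0.70), Dhrs3 (0.37) and Ncoa1 (0.23) lost their calls. Rxrg and Bco1 also lost them under limma voom and with the muscle covariate, Bco1 with no count filter, and Rdh12 under limma voom and with only the groups compared.

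Each antibody arm of the primary tumors was also tested on its own. Under isotype, where 18.3% of all genes were called, 6 of the 44 rose (Stra6l, Lipe, Cyp26a1, Cyp26c1, Cyp1b1 and Tgm2) and 3 fell (Rdh10, Rdh11 and Ppard). Under anti-PD-1, where 11.2% of all genes were called, 4 rose (Stra6l, Dgat1, Lipe and Cyp1b1) and 1 fell (Rarres1). The calls of Rdh10, Ppard and Rarres1 each held in fewer than 4 of 8 alternatives, and that of Dgat1 in 5 of 8. In transplants, with the antibodies averaged (7.23% of all genes called), Stra6l and the coactivator gene Ncoa3 (0.57, edgeR adjusted p = 0.0164) rose and the transcription factor gene Bhlhe40 fell by 0.88 (edgeR adjusted p = 0.0172). Stra6l alone passed in each transplant arm. None of the 44 passed for radiation by model or for anti-PD-1 in either model.

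Between the models, tests were made on these 44 genes, which the choice of Stra6 did not use. The lists were nonetheless drawn up with earlier results of these data known. The transplants all come from the same line, so the tests cannot tell the model from that line. Averaged over treatments 5 were higher and 7 lower in transplants (34.8% of all genes were called). Dhrs9, a retinol dehydrogenase gene, was lower by 2.86 on the log2 scale (edgeR adjusted p = 7.1e-10), at 2.59 to 6.64 CPM in transplants and 3.47 to 93.2 CPM in primary tumors. Adh7, another retinol dehydrogenase gene (-1.63), Aldh1a3, the third retinal dehydrogenase (-1.94), Rdh5 (-0.92), Cyp26c1 (-0.88), Rdh11 (-0.27) and Adh5 (-0.23) were lower as well. Among those higher were Tgm2 (0.99), Stra6l (0.81), Lipe (0.66) and Ppard (0.32).

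In untreated tumors 2 were higher (Tgm2 and Dgat1) and 3 lower (Dhrs9, Adh7 and Rdh11), where 10.3% of all genes were called. Under the combination none was higher and 3 were lower (Dhrs9, Adh7 and Bhlhe40), where 6.76% were. Genes of fibroblasts and mesenchyme moved between the models too, 7 of 8 being lower in transplants (median -0.98), and 5 of 6 T cell genes were higher (median 1.30). The share of all genes called between the models was 34.8% averaged over treatments, beside the 10.3% and 6.76% above. The part of these cell types in the differences was not tested.

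The neighbors of Stra6 on chromosome 9 were examined for the same difference between the models. Of 21 protein-coding genes that start within 500 kb of it, 19 were tested, and averaged over treatments 3 were higher and 2 lower in transplants, in a comparison that called 34.8% of all genes. The nearest on the near side, Cyp11a1, whose start lay 57.4 kb before that of Stra6, had a log2 difference of 0.37 (SE 0.40, edgeR adjusted p = 0.505). Ccdc33, which overlaps Stra6 on the opposite strand, had one of -0.19 (SE 0.38, edgeR adjusted p = 0.743) at mean log2 CPM of -2.92 in transplants and -2.85 in primary tumors. The 3 that were higher lay 410 to 458 kb away: Cplx3 (2.73, edgeR adjusted p = 9.5e-05), Lman1l (1.81, edgeR adjusted p = 1.0e-04) and Csk (0.21, edgeR adjusted p = 0.00922). Cplx3 and Lman1l were rare, with mean log2 CPM of -1.92 and -0.41 in transplants. Islr2 and Loxl1, on the other side, were lower by 1.62 and 0.84. All distances run from the GENCODE start of Stra6 (58063788). Its first RefSeq start, just after the printed window that ends at 58129087, lies nearer to the start of Islr2 (58204319).

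**Figure D5:**
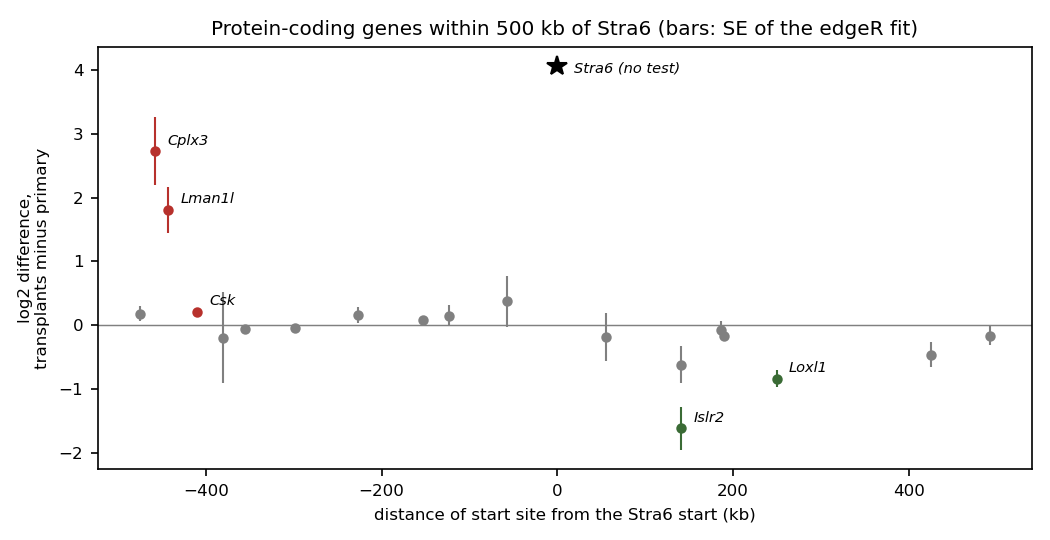
Log2 difference, transplants minus primary tumors averaged over treatments, of 19 tested protein-coding genes by the distance of their start from the Stra6 start (kb); bars are the SE of the edgeR fit, red and green mark genes called higher and lower, and the star is Stra6, which was not tested. Distances run from the GENCODE start of Stra6 (58063788), and its RefSeq starts lie nearer to Islr2. Nearest to the GENCODE start, Cyp11a1 and Ccdc33 stand at 0.37 and -0.19, and the called genes start more than 140 kb from it.

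Likeness to Stra6 was measured over 12834 genes with a mean of at least 1 log2 CPM, as Pearson's r of log2 CPM after the mean of each treatment group was removed. In the 32 primary tumors the 5 genes most like it were Tcf7 (r = 0.67, rho 0.77), which encodes a transcription factor of Wnt signaling and T cells, 1700008J07Rik (0.66), the adhesion receptor gene Adgrb2 (0.63), Gm9776 (0.62) and the exchange factor gene Arhgef7 (0.61). Among the least like it was Gm12715 (-0.60). These genes, and those named below for transplants, were picked as the extremes of 12834 values, with no p. How far r would run by chance among so many was not tested. Of the other members none came near: the highest was Aldh1a2 at 0.24 and the lowest Rara at -0.18.

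In the 16 transplants the most similar genes were others: Dtnb (r = 0.989), the transcription factor gene Tfap2a (0.986), Prmt3 (0.986), Tpbg (0.984) and Tspan11 (0.983). None of these 5 exceeded r = 0.32 in primary tumors. The transplant values leaned on the combination replicates 2 and 3, and without them r was 0.90 to 0.95 for the same 5. Rarg (r = 0.90, and 0.93 without the 2) and Crabp1 (r = 0.88, and 0.40 without the 2) were the members closest to Stra6 in transplants, and Aldh1a1 the farthest (r = -0.56). All points share their library and its scaling, and the transplants also share 1 line.

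In the libraries of line 402230, 1 each and scaled with the tumors over all 50 libraries, Stra6 was at 34.5 CPM in the library labelled parental tumor and 303 CPM in the library labelled cell line, 8.77 times as high. Exact 95% Poisson intervals, which cover counting error only, were 32.8 to 36.3 and 298 to 308 CPM. The library labelled cell line, with its macrophage and endothelial RNA, was within the range of untreated transplants (298 to 469 CPM on this scale). The library labelled parental tumor was within that of untreated primary tumors, with 6 of 32 primary tumors above it. Of the same 32 primary tumors, 0 were above the library labelled cell line.

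The other genes did not follow 1 direction between these libraries. Crabp1 (204 CPM labelled parental tumor, 347 CPM labelled cell line), Crabp2 (16.4 and 49.5), Rarb (0.983 and 10.4), Aldh1a1 (0.156 and 4.47) and Cyp26b1 (0.134 and 21.7) were higher in the library labelled cell line. Rara (48.9 and 35.4) and Rarg (259 and 120.8) were lower there. Aldh1a2 had no read in the library labelled parental tumor and 36 reads (0.780 CPM) in the other, at least 11.6-fold higher against a floor of 3 reads. Aldh1a1, Aldh1a2 and Cyp26b1 in the library labelled parental tumor were below every one of the 48 tumors, and this library also had 1.77 CPM of muscle genes, against at least 12.6 CPM in the tumors. With 1 library each, these are differences between 2 libraries.

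Reads of overlapping genes add an uncertainty, since the sources used here do not say whether strand was used in counting. Stra6 overlaps Ccdc33 and Gm16131, Rarb overlaps Top2b and Gm48162, Aldh1a1 overlaps C730002L08Rik and Gm6684, Rara overlaps Gm22061 and Aldh1a2 overlaps Gm48124. Crabp1, Crabp2, Rarg and Cyp26b1 overlap no annotated gene.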

How the data were processed

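Polyadenylated RNA of 48 tumors and 2 libraries of line 402230 was sequenced from stranded KAPA libraries. Per the labels and methods, the authors used Trimmomatic 0.36 for trimming, aligned to mm10 with STAR (5.5.4b in the submitters' processing notes) and counted them per GENCODE M17 gene by the HTSeq method. The deposited values were raw counts, neither normalized nor pooled. The authors tested with DESeq2. Uniquely placed reads leave near-identical copies uncertain.

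Groups came from the labels, and replicate numbers follow accession order, so they pair nothing. Of 37469 identifiers, 37408 matched a symbol. Coordinates are those of GENCODE M21 (GRCm38). Counts were filtered with filterByExpr, scaled by TMM and tested two-sided with edgeR 4.0.16 (R 4.3.3) in 1 model of 8 group means. CPM in the text are TMM-scaled, and mean log2 CPM carry a prior count of 2. Each library is 1 tumor of 1 mouse, and p-values rest on the spread between tumors, estimated once per gene over all 8 groups. In transplants they thus also carry the spread of primary tumors. The spread among transplants themselves is that between grafts of 1 line. The model was tested on simulated counts. Alternatives were DESeq2 1.42.0, limma 3.58.1 voom, RLE factors, no count filter, only the groups compared, the library labelled parental tumor added to untreated primary tumors, and each library left out. After seeing the data, muscle-rich libraries were left out and the muscle sum was added as a covariate.

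The members, pathway lists, markers and tests were chosen with earlier results of these data known. Named genes are the 9 members, pathway genes past an adjusted p of 0.05, the 5 genes with the highest and 2 with the lowest r with Stra6 in primary tumors and the 5 highest in transplants, and protein-coding neighbors within 500 kb, except that 2 genes the rule selects are not reported here. Promoters are from RefSeq (GRCm38.p6).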

Additional observations from a re-analysis of the deposited data

Results flagged for a closer look

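In each treatment group the highest and the lowest library of each of the 9 genes were checked for a gap to the rest of the group beyond Dixon's 95% critical value. Of 72 pairs of gene and group 4 had such a gap, where chance alone gives about 1 in 20 (3.6 of 72). Crabp2 was at 34.6 CPM in replicate 2 of the transplants given anti-PD-1 alone, the next value being 50.005 CPM. Rarb was at 13.2 CPM in replicate 4 of the primary tumors given anti-PD-1 alone, where the next was 1.94 CPM. Rarg was at 25.6 CPM in replicate 6 of the same group, against 87.9 CPM in the next. Cyp26b1 was at 1.012 CPM in replicate 1 of the primary tumors that received the combination, against 7.71 CPM in the next.

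In the libraries of line 402230, which entered no main comparison, 2 of the 9 genes were above every untreated tumor. Rarb was at 10.4 CPM in the library labelled cell line, where the highest untreated tumor had 7.93 CPM. Rarg was at 259 CPM in the library labelled parental tumor, where the highest untreated tumor had 161 CPM.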

How the results depend on the processing

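After radiation of primary tumors, Crabp1 and Rara kept their direction and their call under all 8 alternatives and without each of 32 libraries, Crabp1 from -1.71 to -1.25 and Rara from 0.45 to 0.53 on the log2 scale. Aldh1a1 lost its call without the muscle-rich libraries and without replicate 4 of the primary tumors given the combination, and Aldh1a2 under limma voom (1.77) and under both muscle settings. The number of the 9 genes past the threshold there was 4, with 5996 of all genes called. Without the muscle-rich libraries it was 2, with 3877 of all genes called. Under isotype antibody the main count of 1 (3534 of all genes) became 4 with DESeq2 (3922) and 2 with limma voom (3256). It was 2 with the muscle sum as covariate (3457) and 3 with only the groups compared. Under anti-PD-1 the main count of 2 (2158 of all genes) became 4 with DESeq2 (2918) and 1 with no count filter (1610). It was 0 without the muscle-rich libraries (807) and 1 with only the groups compared. The Crabp1 call under anti-PD-1 was also lost without replicate 4 of the primary tumors given anti-PD-1 alone (-1.20). It was lost as well without each of replicates 3 (-1.52), 4 (-1.37) and 7 (-1.40) of those given the combination. In transplants the count of 0 became 1, Crabp2, with only the groups compared. For fits of only the groups compared or with 1 library left out, the number of all genes called is not given here.

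Pathway counts for radiation of transplants went from 3 (1398 of all genes called) to 5 with the muscle covariate (1735) and 7 with only the groups compared. Between the models in untreated tumors they went from 5 (1988 of all genes) to 2 with limma voom (1780) and 2 with no count filter (1403). Without the muscle-rich libraries they stood at 1 (502). Under the combination they went from 3 (1307) to 5 with DESeq2 (2071) and 5 without the muscle-rich libraries (1321). With only the groups compared they stood at 0 under the combination. Rxrg reversed to -0.31 without the muscle-rich libraries. With 1 library left out at a time, the counts ran from 1 to 2 (isotype), 1 to 4 (anti-PD-1), 3 to 5 (both antibodies), 1 to 5 (pathway, transplants), 2 to 5 (pathway, untreated) and 1 to 5 (pathway, combination). Of the 5 genes most like Stra6 in transplants, 0 by Spearman's rho and 2 without the farthest 2 tumors stayed among the 20 nearest. The log2 ratio of Stra6 between the 402230 libraries was 3.13, and 3.41 on library totals. Beyond fewer samples or genes, the cause of these shifts was not tested. The fit of only the groups compared could not be run for radiation by model or for the models averaged over treatments, which use all groups. No paired analysis was possible, since each library is 1 tumor of 1 mouse and the labels link no libraries across groups. At these depths counting error is small beside the spread between tumors, except for genes under about 1 CPM.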
